A study of Miniopterus schreibersii with 14 samples.

Results

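The 150 components described here are assembled transcript pieces that were high in the S14 limb buds of the bent-wing bat (Miniopterus schreibersii) and low by stages S15-17. They were chosen by their measured scores among 64618 components. The rule required that the 6 S14 libraries average 50 or more and exceed the averages of the S15-17 and of the fetal libraries, which left 6383 candidates. The candidates were ranked by the ratio of the S14 mean to the S15-17 mean, with 1 added to each, and the first 150 were kept. The fall after S14 is therefore what defined the members, and it is described without a test.

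RNA was sequenced from the autopod (the future hand or foot) of embryos for which the labels name no treatment or genetic change. The S14 libraries came from the anterior, the middle and the posterior of forelimb and hindlimb buds. At S15-17, 6 libraries held digit I of the forelimb (the thumb), the interdigital tissue next to it, forelimb digits II-V, the tissue between these, hindlimb digits I-V and the hindlimb tissue between digits. The fetal stage gave 2 libraries, from forelimb metacarpals II-V and hindlimb metatarsals I-V, the long bones of hand and foot. Each part had 1 library, and the labels do not say how many embryos went into it. Spread and p-values are thus over different parts, not over repeats of 1 part. S15-17 is a range of stages, and where within it the forelimb and hindlimb parts lay was not given, so limb and stage cannot be told apart there.

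A limb bud is mostly mesenchyme under a sheet of ectoderm, in which signals along the anterior to posterior and proximal to distal axes set the pattern of the digits. As digits condense into cartilage, the bud's undivided tissue gives way to digital rays and the interdigital tissue between them. In most mammals the interdigital tissue largely regresses, whereas in the bat wing it persists as membrane between strongly elongated digits, while thumb and toes stay short and free of the wing membrane.

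The deposited table does not pair components with genes. None of its identifiers matched the RefSeq table of 22775 genes of this species (0 matches), so components keep their assembly names, and neither pathway nor cell type lists could be read out. The tissue labels could not be checked against marker genes for the same reason. No 2 members share an assembly number, yet pieces of 1 gene can carry different numbers, so 150 components need not be 150 genes. In such bulk tissue, fewer cells of a type and less RNA per cell cannot be told apart. Scores are the authors' normalized counts, rounded. The score of 1 read lay between 1.29 and 2.23. Reads recovered from the scores, summed over all components, came to 4550754 to 7648427 per library.

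The members were spread over a wide range of abundance. Their mean S14 score ran from 51.8 to 28931, with a median of 192.5. At S15-17 their means ran from 0 to 8933, with a median of 39.6, and in the fetal bones from 0 to 4637, with a median of 28.5. Together the members made up 1.19% to 1.40% of the score of each S14 library, 0.314% to 0.467% of each S15-17 library and 0.181% and 0.208% of the metacarpal and metatarsal libraries. The ratio that ranked them ran from 61 down to 2.84. The last member kept had an S15-17 mean of 163.7 and an S14 mean of 466.8 (ratio 2.841), and the first component left out had 31 and 89.8 (ratio 2.839), so the list ends within a continuous run of values.

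**Figure D1:**
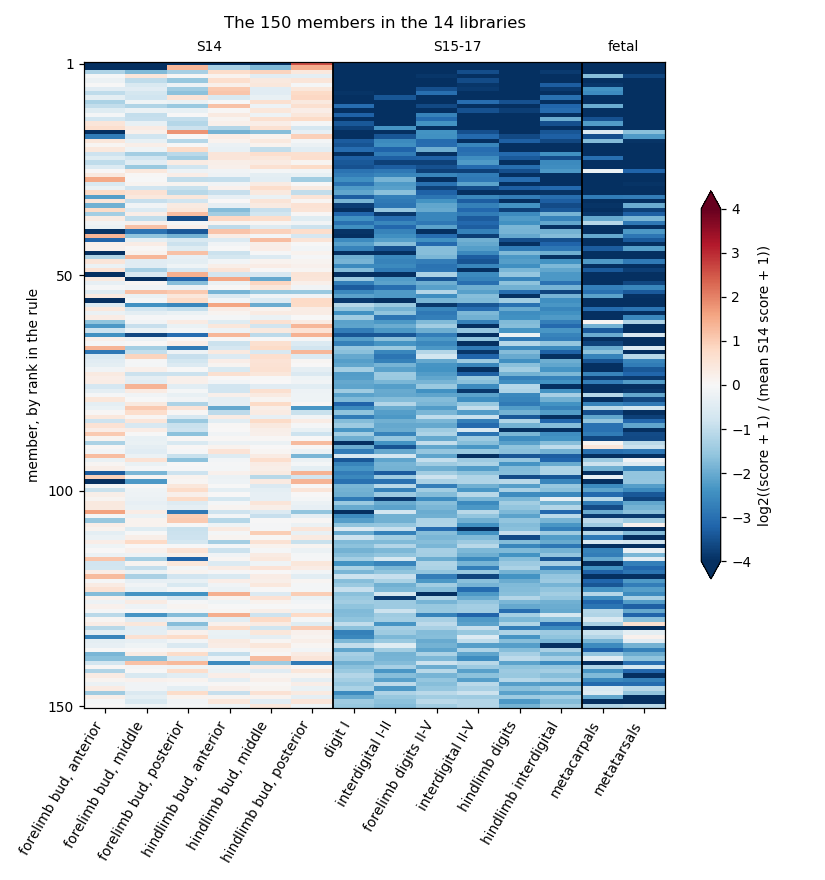
Each row is 1 of the 150 members, in the order of the ranking rule from rank 1 at the top, and each column is 1 library. Colour gives log2 of the score plus 1 over the member's mean S14 score plus 1, so that white is the bud mean, blue is lower and red is higher, and the scale stops at 4 in either direction. The S15-17 columns turn paler from top to bottom, which the ranking sets, while the fetal columns are mostly deep blue, with pale rows scattered among them.

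Few members were lost outright, and most were reduced. Only 1 of 150 was at 0 in all 6 S15-17 libraries, and 2, this one included, had 3 reads or fewer over these 6 libraries. A total of 136 members still had reads in every S15-17 library. The mean S15-17 score was under 5% of the S14 mean in 9 members, 5% to 10% in 11, 10% to 20% in 33, 20% to 30% in 64 and 30% or more in 33. The median was 24.3%, the highest 35.1%. Among the 6383 candidates the median was 77.0%, a gap the ranking itself makes. In 101 members every S15-17 library lay below every S14 library, as in 12.4% of all tested components and 34.4% of the candidates; the ranking used these values, so nothing is read from the excess. In the other 49 at least 1 S15-17 library reached into the range of the buds.

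The 2 members with the largest ratio were also those with the least left. Component comp25454_c0 scored 360 in the posterior hindlimb bud and 0 in each of the other 13 libraries. These are 225 reads from 1 library, so its place at the head of the list rests on that library alone, and no repeat of that part exists. Its pooled S15-17 level was at least 82.2-fold lower than its pooled S14 level, against a floor of 3 reads over the 6 libraries. Component comp16101_c0 scored 154 in the posterior forelimb bud, and 24, 17 and 170 in the anterior, middle and posterior hindlimb bud. It was at 0 in the anterior and middle forelimb bud, and later it had 1 read in all, in hindlimb interdigital tissue, and none in the fetal bones. That is 1 read at S15-17, against 225 reads in the buds.

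Loss to under 10% of the S14 mean in each of the 6 S15-17 libraries was seen in 7 members, which hold ranks 1 to 7. Among these, comp2547_c0, named after its values were seen, scored 83, 124 and 90 in the anterior, middle and posterior forelimb bud and 96, 65 and 67 in the hindlimb bud, then 0 to 5 in the 6 S15-17 libraries, and 26 in metacarpals and 6 in metatarsals. Its fetal mean was 18.3% of its S14 mean, against 2.86% at S15-17. At the other end, comp593_c0 kept the largest share of all members (35.1%) and comp189_c0 the next (35.1%). Component comp593_c0 scored 1237 to 2853 at S15-17, against 4010 to 8471 in the buds, and comp189_c0 scored 125 to 206 at S15-17, against 415 to 646 in the buds.

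**Figure D2:**
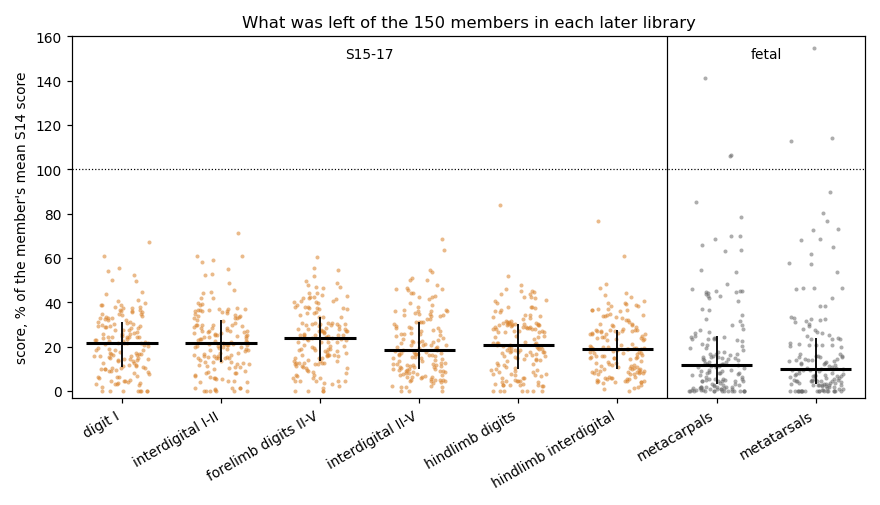
Each point is 1 of the 150 members in 1 library after S14, with its score as a percent of its own mean S14 score on the vertical axis. The thick line is the median, the thin bar runs between the quartiles, and the dotted line marks the S14 mean. Medians lie between 18.4% and 24.0% in the 6 S15-17 libraries and at 11.9% and 9.76% in the fetal ones, where a few members stand above 100%.

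Read over all members, the median share left lay between 18.4% and 24.0% in the libraries of digits, web and thumb. The median percent of the S14 mean was 21.6% in digit I, 24.0% in forelimb digits II-V and 20.7% in hindlimb digits. It was 21.7% between digits I and II, 18.4% between digits II-V and 18.9% in hindlimb interdigital tissue. Members spread widely within a library, with an interquartile range of 11.0% to 31.2% in digit I. That is spread over members, which does not measure how far libraries differ, and the differences between the medians were not tested. Complete absence was rare everywhere: 8 members were at 0 in digit I, 4 in digits II-V and 7 in hindlimb digits, and 6, 3 and 1 in the matching interdigital tissues. At the depth of the shallowest library, digit I, the expected numbers were 8, 4.66 and 8.21 in the digits and 7.84, 3.92 and 2.39 in the interdigital tissues. Over 50% of the bud level, by contrast, was left for 6 members in digit I, 4 in digits II-V and 2 in hindlimb digits, and for 8, 6 and 2 members in the matching interdigital tissues. For single members the libraries disagreed more. Among the 136 members with reads in all 6 S15-17 libraries, the highest library exceeded the lowest by a median of 3.32-fold.

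Differences between digits and interdigital tissue bear on contrasts that the rule did not use. They were tested with limma on log2(score + 1) over all 20429 components averaging 10 or more across the 14 libraries, which include all 150 members, with region (thumb side, wing, foot) as block. Limma called 0 members and 0.0196% of all components at an adjusted p under 0.05. At an unadjusted p under 0.05 stood 38 members (25.3%) and 8.55% of all components. With limma voom on recovered reads 7 members were called, 6 higher and 1 lower in digits, against 1.07% of all components. All 3 digit libraries lay above all 3 interdigital ones in 16 members (10.7%), where 6.86% of all components did, and below them in 4 members (2.67%), where 4.39% did. The median of the digit minus interdigital log2 difference was -0.02 over the members and 0.02 over all components.

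The digit-side members were led by comp6075_c0 and comp6603_c0. Component comp6075_c0 scored 190, 475 and 195 in digit I, digits II-V and hindlimb digits, against 103, 84 and 49 in the matching interdigital tissues. The groups did not overlap, and in the wing region the gap was widest. The log2 difference was 1.78 (SE 0.31, limma adjusted p = 0.175), so it did not pass over all components. Component comp6603_c0 scored 88, 125 and 84 in the digits, against 45, 18 and 29 between them, a difference of 1.73 (SE 0.38, limma adjusted p = 0.285). On the interdigital side, comp20640_c0 had 0, 3 and 7 in the digits and 9, 8 and 12 between them, which are few reads. Component comp8013_c1 scored 160, 158 and 207 in the digits, against 256, 287 and 276 between them, a small difference of -0.65 (SE 0.16, limma adjusted p = 0.346).

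On the thumb side, that is digit I and the tissue next to it, 1 member was called against the average of wing and foot. Component comp14421_c0 was at 0 in digit I and at 0 between digits I and II. It scored 38 in digits II-V, 15 between them, 31 in hindlimb digits and 18 in hindlimb interdigital tissue. The pooled thumb side was at least 9.60-fold lower, against a floor of 3 reads over its libraries. The fitted log2 difference was -4.63 (SE 0.45, limma adjusted p = 0.0471), and 0.0538% of all components were called in this comparison. The call rests on 62 reads in the other 4 libraries. It was lost in limma when any 1 of the 6 libraries was left out (adjusted p = 0.0940 to 0.623), with pseudocounts of 0.25 (adjusted p = 0.0662) and 5 (adjusted p = 0.0614), with no filter (adjusted p = 0.568) or with no block (adjusted p = 0.133). It was kept with upper-quartile scaling (limma adjusted p = 0.0311), median-centred libraries (limma adjusted p = 0.000359), voom on recovered reads (limma adjusted p = 0.0156) and robust shrinkage (limma adjusted p = 0.000785). Its difference stayed negative in all of these fits.

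The same member was unevenly placed in the buds a stage earlier. It scored 0, 58 and 247 in the anterior, middle and posterior forelimb bud and 55, 58 and 133 in the hindlimb bud. The anterior forelimb bud thus had no read of it, and neither had the thumb-side libraries later, whereas the anterior hindlimb bud had reads. In metacarpals and metatarsals it scored 1 and 3.

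Counts of members that did not overlap between the thumb side and the rest were near the shares over all components, in both directions. Both thumb-side libraries lay above the other 4 in 15 members (10%), against 7.36% of all components, and below them in 14 members (9.33%), against 7.76%. The median log2 difference, thumb side minus the rest, was 0.02 over members and -0.01 over all components. At an unadjusted p under 0.05 in limma were 37 members (24.7%) and 8.78% of all components. Voom on recovered reads called 7 members, 4 higher and 3 lower on the thumb side, and 0.808% of all components.

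**Figure D3:**
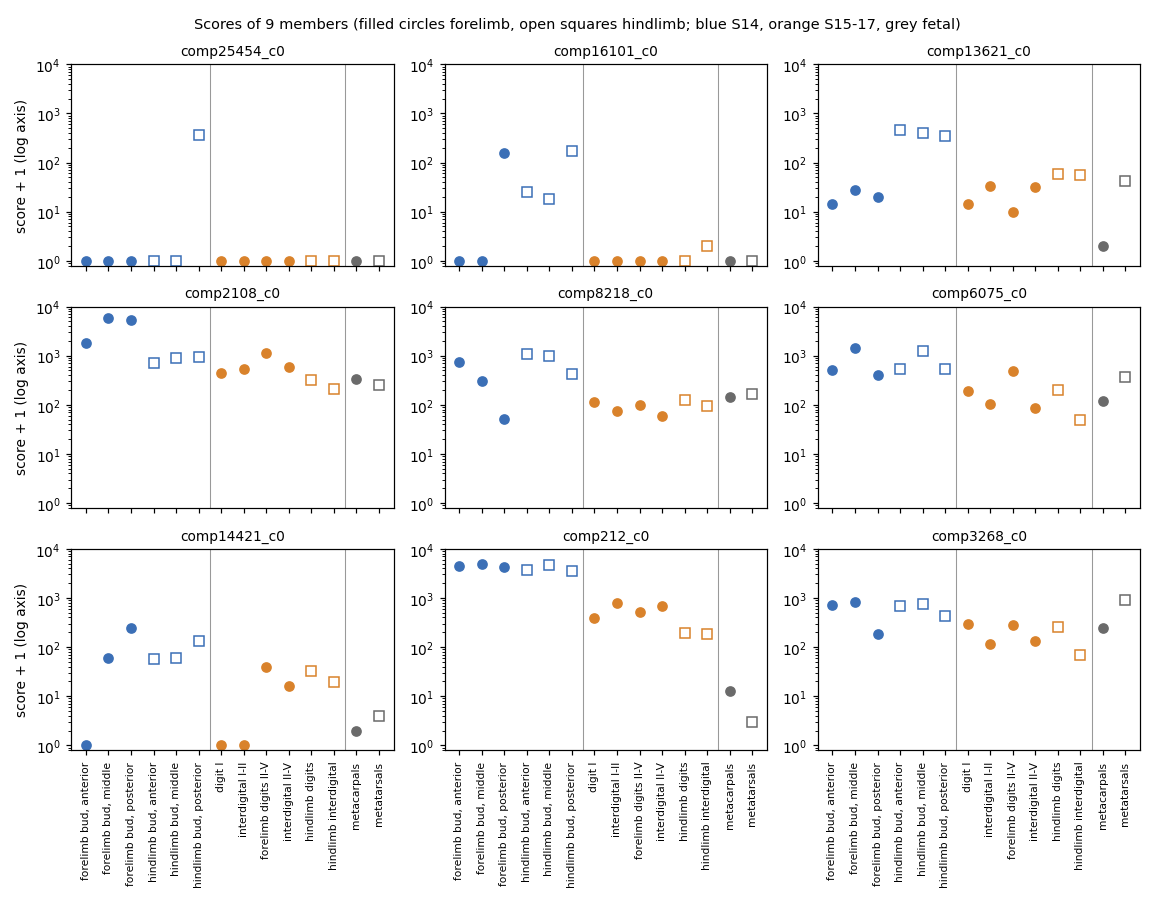
Scores plus 1, on a log axis, of 9 members in the 14 libraries; filled circles are forelimb and open squares hindlimb, and blue, orange and grey mark S14, S15-17 and fetal. A single high library for comp25454_c0, the missing thumb side and anterior forelimb bud of comp14421_c0, the higher forelimb level of comp212_c0 at S15-17 and the fetal metatarsal score of 918 of comp3268_c0 can be seen.

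In the S14 buds, members were more often lower in forelimb than in hindlimb. All 3 forelimb parts lay below all 3 hindlimb parts in 28 members (18.7%), where 10.1% of all components did, and above them in 8 members (5.33%), where 7.10% did. The median of the forelimb minus hindlimb log2 difference was -0.25 over members and -0.02 over all tested components. By part, the median was -0.06 in the anterior, -0.35 in the middle and -0.26 in the posterior pair, so the anterior pair contributed least. The anterior forelimb bud had the fewest recovered reads of the S14 libraries. It was the highest bud library for 24% of members and for 41.7% of the candidates. Its part in the limb difference was not tested. Without the anterior pair, 60 members lay lower in forelimb with no overlap, against 21.2% of all components, a looser criterion since it compares fewer libraries.

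The rule shapes such differences. Its S14 mean held as many forelimb as hindlimb libraries, whereas its S15-17 mean held 4 forelimb and 2 hindlimb libraries. A component steadily higher in hindlimb thus gained ratio without any change between stages. How far this raised the hindlimb-side counts was not tested. The rule's minimum of 50 on the S14 mean bears on them too. In 21 members the forelimb bud mean was under 50, and in 7 the hindlimb bud mean was, so these passed only through the other limb and had to differ between limbs. Component comp13621_c0, which passed only through the hindlimb, as did comp14177_c0, scored 13, 26 and 19 in the anterior, middle and posterior forelimb bud, against 462, 396 and 341 in the hindlimb bud. At S15-17 it scored 13, 32, 9 and 31 in the 4 forelimb libraries and 57 and 56 in the 2 hindlimb libraries. Its forelimb scores covered much the same range at both stages, and its lower S15-17 mean came from the hindlimb libraries. Component comp14177_c0 scored 13, 5 and 8 in the forelimb bud, against 187, 35 and 195 in the hindlimb bud. The log2 differences were -4.34 (SE 0.30, limma adjusted p = 0.156) and -3.59 (SE 0.44, limma adjusted p = 0.404).

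Forelimb-side members were fewer. Component comp2108_c0 averaged 4328 ± 2189 in the forelimb bud and 845 ± 120 in the hindlimb bud (SD, n = 3 each). Its forelimb parts scored 1817, 5828 and 5340, all above the hindlimb range of 707 to 927. Component comp12931_c0, which passed only through the forelimb, scored 129, 486 and 538 in the forelimb bud, against 37, 81 and 30 in the hindlimb bud. At S15-17 its forelimb libraries had 56 to 120, below every forelimb bud part, while hindlimb digits had 48 and the tissue between them 37, within the hindlimb bud range. The log2 differences were 2.19 (SE 0.29, limma adjusted p = 0.404) and 2.82 (SE 0.48, limma adjusted p = 0.424).

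With bud part as block, limma called 0 members between the limbs at S14, as it called 0% of all components. Unadjusted p-values were under 0.05 for 51 members (34%) and for 10.7% of all components. Voom on recovered reads called 31 members, 7 higher and 24 lower in forelimb, against 1.05% of all components. The member counts of both fits include members that passed the minimum through 1 limb only and had to differ. Examples are comp13621_c0 and comp14177_c0, both among the 24 lower calls. The number of calls between limbs at S14 thus differed between these fits, while the direction of the named members was the same in both.

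Along the anterior to posterior axis the members varied in both directions. Both anterior parts lay above both posterior parts in 28 members (18.7%), where 12.6% of all components did, and below them in another 28 (18.7%), where 10.9% did. The median absolute log2 difference was 0.44 in members and 0.20 in all components. The rule's minimum of 50 shapes these values too. A member low in both anterior or both posterior parts could pass only through the rest of the bud. Some differences along this axis were thus built in. Component comp16101_c0, with 0 and 24 in the anterior parts against 154 and 170 in the posterior parts, is an example. How far this raised the counts was not tested. Component comp8218_c0 was highest anteriorly, with 754 in the anterior and 50 in the posterior forelimb bud and with 1067 and 424 in the hindlimb bud. Its middle parts lay in between, at 301 and 979. Component comp17977_c0 scored 243 in the anterior and 10 in the posterior forelimb bud, against 44 and 26 in the hindlimb bud, so the gradient was mostly that of the forelimb. The anterior forelimb library held 51.3% of its S14 total, and without that library comp17977_c0 would not have met the minimum of 50.

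Posterior members were led by comp16101_c0 and comp14421_c0, whose values are given above. Limma called 0 members between anterior and posterior parts and 0% of all components. At an unadjusted p under 0.05 were 32 members (21.3%) and 3.88% of all components. Whether the rule's minimum raised this member share was not tested. Voom on recovered reads called 5 members, 1 higher and 4 lower in anterior parts, and 0.0832% of all components. For comp8218_c0 the log2 difference was 2.61 (SE 0.61, limma adjusted p = 0.947), and for comp16101_c0 it was -5.03 (SE 1.2, limma adjusted p = 0.947).

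Middle parts stood above the outer ones more often than below them. Both middle parts lay above all 4 outer parts in 15 members (10%), where 5.86% of all components did, and below them in 4 (2.67%), where 5.11% did. The rule's minimum bears on these counts in the same way as on those between anterior and posterior parts. Component comp6075_c0, which led the digit side later, also led here. It scored 1445 in the middle of the forelimb bud, against 520 in the anterior and 410 in the posterior part. In the hindlimb bud it scored 1252 in the middle, against 536 and 540. The log2 difference was 1.43 (SE 0.15, limma adjusted p = 0.930). Component comp5456_c0 scored 2041 and 1735 in the middle of forelimb and hindlimb buds, against 451 to 1402 in the outer parts. In the opposite direction, comp1286_c0 scored 1644 and 2756 in the middle parts, against 3002 to 4366 in the outer parts, and comp593_c0 scored 4010 and 4385, against 5523 to 8471.

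Limma called 0 members for the middle against the outer parts and 0% of all components, with 26 members (17.3%) and 4.85% of all components at an unadjusted p under 0.05. Voom on recovered reads called 12 members, 6 in each direction, and 0.245% of all components. The middle hindlimb bud was the highest S14 library for 27.3% of members and 14.9% of candidates. Its part in the middle-side counts was not tested.

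A few members depended on 1 bud library. In 4 members a single library held over 50% of the S14 total, and in 15 the S14 mean was under 50 without the highest library. The highest library held a median of 25.4% of the S14 total over members and 19.7% over candidates.

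At S15-17 more of the bud level was left in forelimb than in hindlimb at the median. Relative to the buds of the same limb, a median of 25.8% was left in forelimb and 19.4% in hindlimb. By library the median was 24.0% in digit I, 24.7% between digits I and II, 26.1% in digits II-V and 21.6% between them, against 20.02% in hindlimb digits and 18.6% between these. The rule ranked members by these same scores, so the shares are a description. Its S15-17 mean held more forelimb than hindlimb libraries, so the forelimb scores weighed more in the ratio. The forelimb bud mean was under 50 in 21 members and the hindlimb bud mean in 7, and a low bud mean raises the share. The highest share was 133% in forelimb and 86.1% in hindlimb. All 4 forelimb libraries lay above both hindlimb libraries in 26 members (17.3%), where 5.78% of all components did, and below them in 17 (11.3%), where 10.2% did. With the thumb side left out, the first count was 39, against 13.6% of all components. That choice was made after the values were seen, and it is a looser criterion since it compares fewer libraries.

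Of the 26 members on the forelimb side at S15-17, 15 were abundant, with a mean S14 score of at least 1000. Of 27 members with a mean S14 score of at least 1000, 15 (55.6%) were higher in all 4 forelimb than in both hindlimb libraries at S15-17, and 1 was lower. Of the 2454 tested components with such a bud mean, 98 (3.99%) were higher and 348 lower. This split by abundance was made after the values were seen. Of these 15 members, 11 had overlapping limbs at S14, 2 were higher in forelimb and 2 in hindlimb. A median of 26.5% was left in forelimb and 16.0% in hindlimb. These members were picked for higher forelimb scores at S15-17, so this order follows largely from the choice. In the fetal bones a median of 7.07% was left, between 0.165% and 18.1%. Both fetal libraries lay below every S15-17 library in 10 of the 15. The same held in 34.7% of all tested components and 60.4% of the candidates, so nothing is read from this count.

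Component comp212_c0, chosen after its values were seen, is an example. It scored 4439, 4947 and 4194 in the forelimb bud parts and 3625, 4643 and 3606 in the hindlimb bud parts. At S15-17 it scored 385 in digit I, 782 between digits I and II, 508 in digits II-V and 697 between them, against 188 in hindlimb digits and 185 between these. Fetal metacarpals had 12 and metatarsals 2. Component comp511_c0, also chosen after its values were seen, averaged 8606 ± 1284 in the forelimb bud and 8994 ± 163 in the hindlimb bud (SD, n = 3 each). At S15-17 it averaged 2646 ± 520 in forelimb (SD, n = 4) and 1601 ± 83.4 in hindlimb (SD, n = 2). Metacarpals and metatarsals had 711 and 725.

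**Figure D4:**
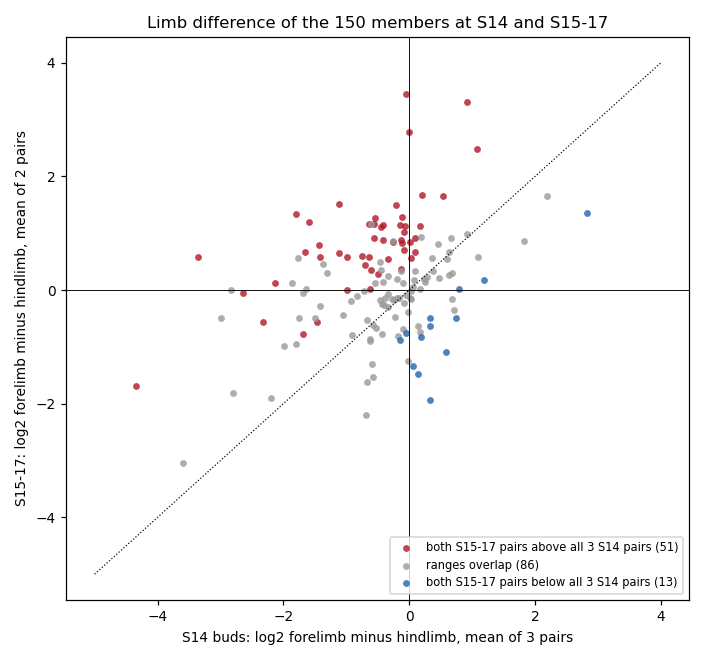
Each point is 1 of the 150 members, with the forelimb minus hindlimb log2(score + 1) difference averaged over the 3 S14 pairs on the horizontal axis and over the digit and interdigital pairs of S15-17 on the vertical axis. The dotted line marks equal differences. Red points, in which both later differences lie above all 3 bud differences, number 51, and blue points, with the opposite order, number 13.

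Whether the limb difference itself changed was tested as an interaction over the 3 S14 pairs and the 2 S15-17 pairs that have a counterpart in the foot. The later difference was further towards forelimb in 101 members and towards hindlimb in 49. In 51 members (34%) both later forelimb minus hindlimb differences lay above all 3 S14 ones, where 12.1% of all components did. The opposite order held in 13, where 14.2% of all components did. The median of the interaction was 0.55 on the log2 scale over members and -0.02 over all components. The rule bears on these counts and on this median. In 21 members the forelimb bud mean was under the rule's minimum, and in 7 the hindlimb bud mean was. The former had to be lower in forelimb at S14, which favours a later difference further towards forelimb. How much of the excess over all components this selection made was not tested. By the mean differences, 51 members were lower in forelimb at S14 and higher in forelimb at S15-17, and 15 had the opposite signs. By pair, the median forelimb minus hindlimb difference over members was 0.16 in the digits and 0 in the interdigital tissue. Leaving out the anterior bud pair, a choice made after the values were seen, gave 66 members with both later differences above the bud ones, against 17.2% of all components.

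Among single members, comp10336_c0 scored 132, 135 and 61 in the forelimb bud and 109, 127 and 88 in the hindlimb bud. At S15-17 it scored 40 in digits II-V and 69 between them, against 5 in hindlimb digits and 3 between these. Its limb difference changed by 3.50 (SE 0.54, limma adjusted p = 0.405). Component comp9834_c0 changed by 3.94 (SE 1.29, limma adjusted p = 0.496), but it met the minimum of 50 only through the hindlimb buds, whose scores also enter this difference. It scored 0, 15 and 82 in the forelimb bud, against 68, 100 and 203 in the hindlimb bud, and later 31 in digits II-V and 33 between them, against 36 in hindlimb digits and 12 between these. For comp212_c0 the change was 1.47 (SE 0.19, limma adjusted p = 0.275).

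In the opposite direction, comp7572_c0 scored 23 in digits II-V and 8 between them, against 63 in hindlimb digits and 48 between these, and changed by -2.26 (SE 0.57, limma adjusted p = 0.458). Component comp9049_c0 changed by -1.68 (SE 0.38, limma adjusted p = 0.436). Limma called 0 members for the interaction and 0.0049% of all components. Unadjusted p-values were under 0.05 for 52 members (34.7%) and 9.54% of all components. The members tested include those that met the rule's minimum only through hindlimb or only through forelimb buds. Voom on recovered reads called 4 members, each towards forelimb, and 0.117% of all components.

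In the fetal bones most members had a lower mean than at S15-17, and a minority a higher one. The rule used both later means, so these counts are a description. The fetal mean was below the S15-17 mean in 105 members and above it in 43. Both fetal libraries lay below every S15-17 library in 44 members, against 34.7% of all tested components and 60.4% of the candidates. They lay above every S15-17 library in 10 members, against 24.2% of all tested components and 1.71% of the candidates. A median of 12.47% of the S14 mean was left in the fetal bones. Complete absence was more frequent than in any S15-17 library, with 14 members at 0 in metacarpals and 19 in metatarsals, of which 8 were at 0 in both. At the depth of the shallowest library the expected numbers were 19.5 and 22.5.

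At the other extreme, 17 members had a fetal mean over 50% of their S14 mean, and 2 exceeded every bud part in 1 fetal library. Component comp3268_c0 scored 918 in metatarsals and 240 in metacarpals, against 180 to 809 in the buds. At S15-17 it scored 297, 284 and 259 in digit I, digits II-V and hindlimb digits, against 116, 134 and 68 in the matching interdigital tissues. Component comp11863_c0 scored 42 to 59 in the buds, 4 to 26 at S15-17, and 76 in metacarpals and 29 in metatarsals. In comp3268_c0 the digits at S15-17 thus lay above metacarpals and below metatarsals, while comp11863_c0 was higher in both fetal libraries than in any S15-17 library.

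Metacarpals and metatarsals differed by over 4-fold in 25 members, with no replicate check since each is 1 library. Metacarpals were higher in 15 of these (2.97% of all tested components were over 4-fold higher) and lower in 10 (2.64% of all were). Component comp593_c0 scored 195 in metacarpals and 23 in metatarsals. On the metatarsal side, comp13621_c0 scored 1 in metacarpals and 42 in metatarsals, the same side as in its buds.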

How the data were processed

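Per the file headers, the authors deposited 1 normalized score per component and library. The scores are whole numbers, treated here as normalized counts rounded by the authors and not as raw counts, because within each library the low scores take only multiples of 1 step, rounded. CASAVA 1.8, edgeR and RSEM appear in the submitters' processing notes, with no role given. No source used here names the assembler. Reads were recovered by dividing by the step, fitted up to a score of 2000; 99.99% to 100% of nonzero scores were whole within rounding.

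Limma 3.58.1 in R 4.3.3 was run on log2(score + 1) with a mean-variance trend over 20429 components (mean score of at least 10), with Benjamini-Hochberg adjustment, two-sided, at 0.05. Fold changes on this scale understate those of low components. Fits were also run on simulated reads with a fixed spread and with changes placed only in components averaging 50 or more. That run does not speak to lower components or to spread that differs between parts. Other steps used Python 3.11.15 with scipy 1.17.1, pandas 2.3.3, matplotlib 3.10.9 and numpy 2.4.6. A component does not overlap between groups when every library of one exceeds every library of the other. The count test planned for raw counts was not used. At most 2 components per direction and comparison were named, by largest log2 difference among called or, failing those, not overlapping members, besides those with extreme shares left; others are marked as chosen after their values were seen. Gene lists and cell type markers could not be matched to components and were not run. Members, lists and comparisons were chosen with earlier results of these data known. Alternatives were other pseudocounts, filters, scalings, variance estimates, blocks, rules and left-out libraries.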

Additional observations from a re-analysis of the deposited data

How the results depend on the processing

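The 150 members depend on the rule: 89 stayed with a minimum S14 mean of 20, 102 with 100, 105 and 106 when forelimb or hindlimb libraries alone were ranked, 126 with medians, and 143 to 148 with other scalings or pseudocounts; leaving out 1 library kept 133 to 144. The number at 0 in all S15-17 libraries was 2 with 3 reads or fewer allowed, 1.33 expected at equal depth, and 1 to 2 with 1 library left out (2 without hindlimb interdigital tissue). Median-centred libraries called 3 members between limbs at S14, 6 between digits and interdigital tissue, 7 on the thumb side and 2 for the interaction (21, 197, 145 and 7 of all components). Limma voom on recovered reads called 31, 7, 7 and 4 in these, 5 between anterior and posterior and 12 between middle and outer parts (215, 218, 165, 24, 17 and 50 of all). Robust shrinkage called 20, 8, 5, 7, 1 and 5 (150, 213, 160, 16, 5 and 35 of all, with 15 of the 16 towards forelimb). Without block, 1 was called between limbs at S14 and 0 on the thumb side, where pseudocounts of 0.25 and 5, no filter and each left-out library also gave 0 (leave-one-out range 0 to 0). Without the anterior bud pair, which was chosen after seeing the data, 60 members lay lower in forelimb buds with no overlap, against 28. Of 110 such recomputations 79 stayed within 1.5 times the reported count. No named member changed direction in a limma alternative (270 fits); 25 of these fits added a call and 10 removed that of comp14421_c0. No label marks replicates across parts, so the blocks above are matched parts; the spread within 1 part was not measured, and the causes of the differing counts were not tested. Depth limits members near 0 at S15-17, where 1 read scores 1.36 to 2.14.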
